A study of Macaca mulatta with 2 samples.

Results

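The plasminogen activators PLAT and PLAU, the urokinase receptor PLAUR, the serpins SERPINE2, SERPINB2, SERPINA5, SERPINF1 and SERPINI1 and the protease trap A2M were followed in cultured Sertoli cells of rhesus macaques. These 9 genes were taken by name from the gene column of the scanner files, with every probe that carries one of the names. They had 10 of the 41000 probes on the array, and 8 of the 9 were among the 19611 genes and single probes that could be tested. The ninth, SERPINB2, was not well above background in any culture.

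Each of 2 two-colour arrays set the RNA of 1 pubertal culture against that of 1 infant culture, 4 cultures in all. The infant Sertoli cells were prepared from testes of males less than 3 months of age. The pubertal cells came from males of 18 to 22 months that had received gonadotropin-releasing hormone (GnRH) through a catheter at 0.15 µg/min, in pulses of 2 min at intervals of 3 h, over 4 to 5 weeks to bring on puberty. All 4 cultures, infant and pubertal, received testosterone (100 nM) together with FSH, the follicle-stimulating hormone, at 5 ng/ml during 24 h, so the effect of the hormones was not measured. The pubertal RNA was red (Cy5) on array 1 and green (Cy3) on array 2. Puberty was thus induced rather than natural, the labels give each culture its own identifier, and the number of animals behind a culture is not given in the sources used here.

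Sertoli cells line the seminiferous tubule and support germ cells, and they are known to secrete plasminogen activators, in rodents under the control of FSH. The tissue-type activator (PLAT) and the urokinase-type activator (PLAU) cut plasminogen into plasmin, a broad protease that opens extracellular matrix, and urokinase is held at the cell surface by its receptor PLAUR. Inhibitory serpins offer a loop as bait and stay bound to the protease that cuts it, whereas alpha-2-macroglobulin cages proteases of many classes.

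The cultures are labelled as Sertoli cells, and 18 of 19 Sertoli cell markers on the array were well above background in all 4 cultures. The exception was the FSH receptor gene FSHR in 1 pubertal culture. Markers of other cells were present too, so detection alone does not bear out the label. Of 13 fibroblast and stroma markers 12, of 8 smooth muscle markers 8 and of 8 Leydig cell markers 7 were well above background in all 4 cultures, as were 11 of 14 germ cell, 6 of 10 macrophage and 5 of 10 endothelial markers. Both arrays lay on 1 slide, in 1 scan. On them, 60.9% to 74.8% of the 43376 spots per array were well above background in each channel, and the number of arrays limits the precision of every value below.

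The probes are human sequences of 60 bases, with positions on the human build hg17, and they read macaque RNA here. Serpins are a family of related proteins, so the probes of SERPINE2 and SERPINF1 are shown as a pair, with those of the receptor, the undetected SERPINB2 and A2M, as the scanner files print them. Capitals in the SERPINE2 and SERPINF1 probes mark the bases that are equal when the pair is placed side by side without gaps.
SERPINE2: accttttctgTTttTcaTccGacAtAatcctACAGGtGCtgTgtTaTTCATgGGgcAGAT
SERPINF1: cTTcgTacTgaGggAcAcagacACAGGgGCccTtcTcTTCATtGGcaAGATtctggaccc
SERPINB2: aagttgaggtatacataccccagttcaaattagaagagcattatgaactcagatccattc
PLAUR: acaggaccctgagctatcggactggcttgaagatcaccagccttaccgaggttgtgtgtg
A2M: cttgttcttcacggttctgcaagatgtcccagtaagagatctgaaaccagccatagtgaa

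The SERPINE2 and SERPINF1 probes shared 27 of the 51 bases that overlapped in their best placement (52.9%), with a run of capitals near the end of the SERPINE2 probe. The other pairs among the 5 serpin probes with a reading frame free of stop codons, 1 for each serpin, shared 36.1% to 56.0% of bases, over overlaps of at least 24 bases. The SERPINE2 probe lies on the minus strand at chr2:224666102-224667800, a span of 1699 bases, so its 60 letters are split in the genome. The SERPINF1 probe lies on the plus strand at chr17:1627418-1627477 and the SERPINB2 probe on the plus strand at chr18:59721182-59721241. The PLAUR probe lies on the minus strand at chr19:48861338-48861397 and the A2M probe on the minus strand at chr12:9112626-9112685. The PLAT probe is at chr8:42151969-42152028 (minus strand), the PLAU probe at chr10:75347056-75347115 (plus strand) and the SERPINI1 probe at chr3:168990910-168990969 (plus strand). SERPINA5 had a pair of probes on the plus strand, at chr14:94128753-94128812 and chr14:94128399-94128458. No gene annotation of hg17 was used here, so exon and UTR positions are not given.

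Values are given as log2 ratios of pubertal over infant RNA, 1 per array, after correction for background and loess normalization within each array. A log2 ratio of 1 is a 2-fold difference. Levels are log2 intensities of single channels, scaled between the arrays, and they can be compared within a probe only. Same-stage cultures carried opposite dyes, so a gap between them can hold a dye effect as well as a difference between animals. In cultures of mixed cells, fewer cells of a type and less RNA per cell cannot be told apart.

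None of the 8 tested members passed limma's test across all genes, and by loess the 2 arrays had the same sign for 5 or 6 of them, depending on the SERPINA5 probe. PLAT, PLAUR and SERPINE2 were above 0 on both arrays and SERPINF1 and A2M below 0 on both, while PLAU and SERPINI1 had opposite signs. SERPINA5 was above 0 on both arrays by its brighter probe, where a saturated infant spot can make the array 2 value too high. It had opposite signs by its dimmer probe. Thus 4 members were above 0 on both arrays with the brighter probe and 3 with the dimmer, a reading added after seeing the data. Of all tested genes 23.5% were above 0 on both arrays, 21.9% below 0 on both, and 54.6% had opposite signs. Over these genes the ratios of the 2 arrays had a Pearson correlation of -0.065 by loess. The arrays as wholes thus did not repeat each other, which limits every mean given below. With median centring of the ratios in place of loess, the tested genes had medians of 0.63 on array 1 and -0.42 on array 2. Relative to those medians, A2M and SERPINF1 were again below on both arrays and SERPINE2 above on both, but PLAT, PLAUR and SERPINA5 were below on array 2. Of all tested genes, 15.3% were above those medians on both arrays and 15.3% below.

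**Figure D1:**
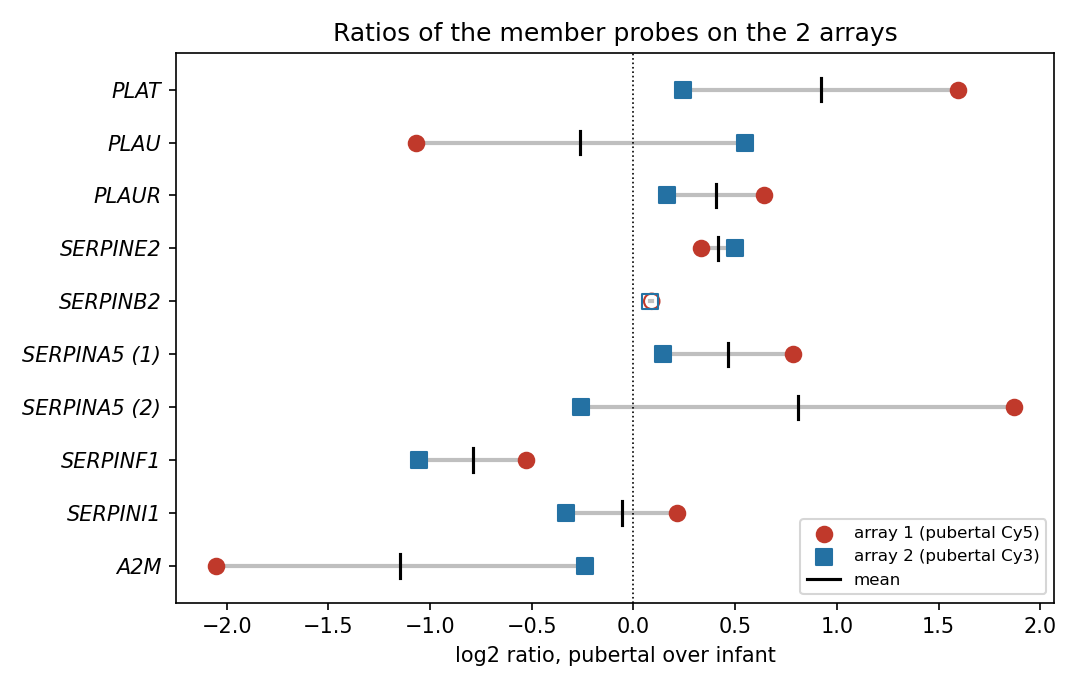
Log2 ratio of pubertal over infant RNA (x axis) for each member probe (y axis), with array 1 as red circles, array 2 as blue squares, the mean as a black bar and open symbols for a probe not well above background; (1) and (2) are the brighter and the dimmer SERPINA5 probe. The bars between arrays are longest for the dimmer SERPINA5 probe, A2M, PLAU and PLAT, and short for SERPINE2; the array 2 values of PLAT, PLAUR and SERPINA5 (1) lie above 0 here and below the median of tested genes with median centring.

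By the test, 0 of the 8 members and 0 of the 19611 genes (0%) had a Benjamini-Hochberg adjusted p under 0.05 in limma's fit. At an unadjusted p under 0.05 there was 1 member, SERPINF1, and there were 792 genes in all. These counts moved with the processing, to 0 members and 104 genes with median centring, and 0 members and 1169 genes from the signals the scanner software had processed. At a normexp offset of 0 there were 2 members and 1049 genes, and with an intensity trend 3 members and 1075 genes. With 2 array pairs and 1 residual degree of freedom, a missed threshold does not show that the stages were alike. A difference of 2-fold or more on each array, up in the pubertal culture, was seen for 67 genes (0.342%), and one down for 69 (0.352%), with no member among either.

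PLAT, the tissue-type activator, had the highest mean ratio among the members without saturated spots. Its level was 13.36 in the pubertal and 11.77 in the infant culture of array 1, and 12.70 and 12.45 on array 2. The pubertal culture was thus above its infant partner on each array by loess, with log2 ratios of 1.60 and 0.25, and the lower pubertal level lay above the higher infant level. The mean was 0.92 ± 0.39 (moderated SE, n = 2 array pairs), or 1.89-fold, with a 95% interval from -0.09 to 1.93 and an adjusted p of 0.99998 by limma. Of the tested genes 1.48% had a higher mean. The size on array 1 (3.02-fold) was not matched on array 2 (1.19-fold), where median centring put PLAT at -0.07 relative to the tested genes.

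PLAU, the urokinase-type activator, went opposite ways on the arrays. Its level was 11.78 in the pubertal and 12.85 in the infant culture of array 1, against 11.34 and 10.79 on array 2. The infant cultures lay furthest apart, by 2.06 on the log2 scale, and the pubertal cultures, 0.44 apart, fell between them. The log2 ratios were -1.07 and 0.55, with a mean of -0.26 ± 0.44 (limma's adjusted p = 0.99998, n = 2). Because the dyes were swapped, PLAU was the weaker in Cy5 on both arrays, at Cy5 over Cy3 log2 ratios of -1.07 and -0.55. By dye, with SERPINA5 read by its brighter probe, 1 of the 8 members was below 0 on both arrays (PLAU; 23.2% of tested genes), 1 above on both (SERPINI1; 31.5%) and 6 had opposite signs (45.4%). None was 2-fold apart by dye on both arrays, against 49 genes (0.25%) with the stronger Cy5 and 107 (0.546%) with the weaker. A dye effect and a difference between the pairs of cultures cannot be told apart here.

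The probes of both activators were printed 10 times on each array, which gives the error between spots of the same array directly. PLAT spots had an SD of 0.087 on array 1 (n = 10 spots) and 0.056 on array 2 (n = 9, with 1 spot left out as an outlier). PLAU spots had an SD of 0.068 and 0.067 (n = 10 on each array). The arrays differed by 1.35 for PLAT and 1.62 for PLAU, far more than the spots of either array did. Spots of an array share 1 pair of cultures, the same labelled RNA and the same dye assignment, so they measure spot error within that array. They hold neither labelling and dye error nor the spread between animals. Over the 226 kept probes with 10 spots, the median SD was 0.088 on array 1 and 0.082 on array 2, and the median gap between arrays was 0.57.

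**Figure D2:**
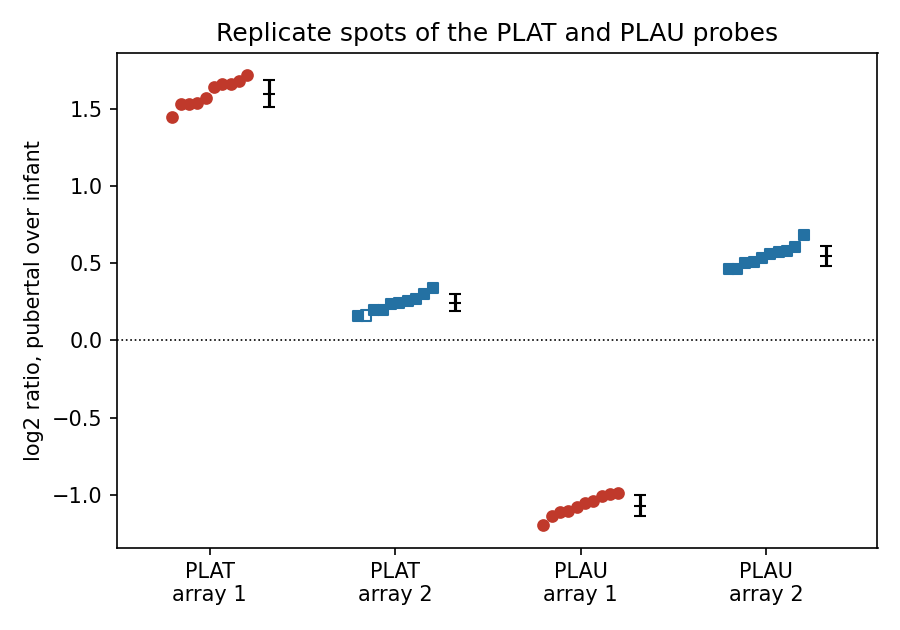
Log2 ratio of pubertal over infant RNA (y axis) for each replicate spot of the PLAT and PLAU probes on array 1 (red circles) and array 2 (blue squares), in order of value, with mean and SD over the spots used in black; an open symbol is a spot left out. PLAT spots ran from 1.44 to 1.72 and from 0.16 to 0.34 on the arrays, and PLAU spots from -1.20 to -0.99 and from 0.46 to 0.68, so no group of spots overlaps that of the same gene on the other array.

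PLAUR, the receptor that keeps urokinase at the cell surface, had a smaller difference. Its level was 11.19 in the pubertal and 10.54 in the infant culture of array 1, and 11.27 and 11.11 on array 2. The pubertal cultures were close together, and by loess each was above its infant partner, with log2 ratios of 0.64 and 0.16. The mean was 0.40 ± 0.26 (limma's adjusted p = 0.99998, n = 2). With median centring the array 2 value was -0.05 relative to the tested genes. Receptor and urokinase stood on opposite sides of 0 on array 1, and on the same side on array 2 by loess but not with median centring, which put PLAU at 0.33.

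SERPINE2, protease nexin-1, inhibits thrombin and both plasminogen activators, and it was the member with the closest ratios on the arrays. Its level was 13.16 in the pubertal and 12.82 in the infant culture of array 1, and 11.64 and 11.14 on array 2. Both cultures of array 1 were well above both of array 2, so the groups overlapped although each pubertal culture was above its own partner. The log2 ratios were 0.33 and 0.50, with a mean of 0.42 ± 0.24 or 1.34-fold (limma's adjusted p = 0.99998, n = 2). Their gap of 0.17 was larger than that of 23.7% of tested genes. Relative to the tested genes, median centring gave 0.87 and 0.27, so SERPINE2 was the member that stayed above on both arrays either way.

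SERPINB2, plasminogen activator inhibitor type 2, gave no measurable signal. Its raw brightness was 56.5 in the pubertal and 59.9 in the infant channel of array 1, with local backgrounds of 45 and 50.5. On array 2 it was 63.7 in the pubertal channel and 60.1 in the infant channel, with backgrounds of 46.5 and 50. No channel was flagged as well above background, so no fold is given. How well the human probe binds the macaque transcript was not tested.

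SERPINA5, the protein C inhibitor, is a heparin-dependent serpin of the male reproductive tract that inhibits urokinase among other proteases, and its spots were the only saturated ones among the members. The brighter probe had levels of 14.95 (pubertal) and 14.16 (infant) on array 1 and of 15.32 and 15.17 on array 2. Its red channel was saturated on both arrays, in the pubertal culture of array 1 and the infant culture of array 2. Saturation by itself makes the log2 ratio of 0.79 on array 1 too low and that of 0.14 on array 2 too high. Saturated spots were also used to fit the loess curve, so the normalized values are not strict bounds. The mean of 0.46 ± 0.28 (limma's adjusted p = 0.99998, n = 2) rests on both.

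The dimmer SERPINA5 probe had levels of 14.96 (pubertal, saturated) and 13.09 (infant) on array 1 and of 14.18 and 14.44 on array 2, where no channel was saturated. Its log2 ratios were 1.87, which saturation can make too low, and -0.26. The probes thus had the same sign on array 1 and opposite signs on array 2 by loess and by the scanner's signals. With median centring both were below the tested genes on array 2, at -0.35 and -0.68. SERPINA5 was bright in every culture, and a direction between the stages was not settled by these probes.

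SERPINF1, pigment epithelium-derived factor, is a secreted serpin that lacks protease inhibition and is known to restrain the growth of vessels. Its level was 11.86 in the pubertal and 12.38 in the infant culture of array 1, and 10.87 and 11.92 on array 2. Both pubertal cultures lay below both infant cultures, with little between the nearest pair. The log2 ratios were -0.53 and -1.05, with a mean of -0.79 ± 0.27 or 1.73-fold lower and a 95% interval from -1.48 to -0.10. It had the smallest p of the members by limma (unadjusted p = 0.0328, rank 564 of 19611), and the adjusted p was 0.99998 (n = 2). Relative to the tested genes, median centring gave -0.06 and -1.28, so the array 1 value was then near 0.

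SERPINI1, neuroserpin, which inhibits the tissue-type activator in the nervous system, had a raw brightness between 117 and 577 and was well above background in all 4 cultures. Its level was 8.43 in the pubertal and 8.21 in the infant culture of array 1, and 7.21 and 7.54 on array 2. As with SERPINE2, the cultures of array 1 were above those of array 2 whatever their stage. The log2 ratios of 0.21 and -0.33 had opposite signs and a mean of -0.06 ± 0.27 (limma's adjusted p = 0.99998, n = 2).

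A2M, alpha-2-macroglobulin, a protease trap that Sertoli cells of rodents are known to secrete, had the lowest mean ratio of the members. Its level was 9.27 in the pubertal and 11.32 in the infant culture of array 1, and 11.33 and 11.56 on array 2. One pubertal culture was thus far below the other 3 cultures, and the other pubertal culture lay at the level of the infant cultures. The log2 ratios were -2.05 and -0.24, with a mean of -1.15 ± 0.48, a 95% interval from -2.39 to 0.10 and an adjusted p of 0.99998 by limma (n = 2). Of the tested genes 0.592% had a lower mean, and 97.0% had a smaller gap between arrays than the 1.82 of A2M. The mean of 2.21-fold lower rests on array 1 (4.15-fold), since array 2 alone gave 1.18-fold. Median centring kept both values below the tested genes, at -1.80 and -0.47.

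**Figure D3:**
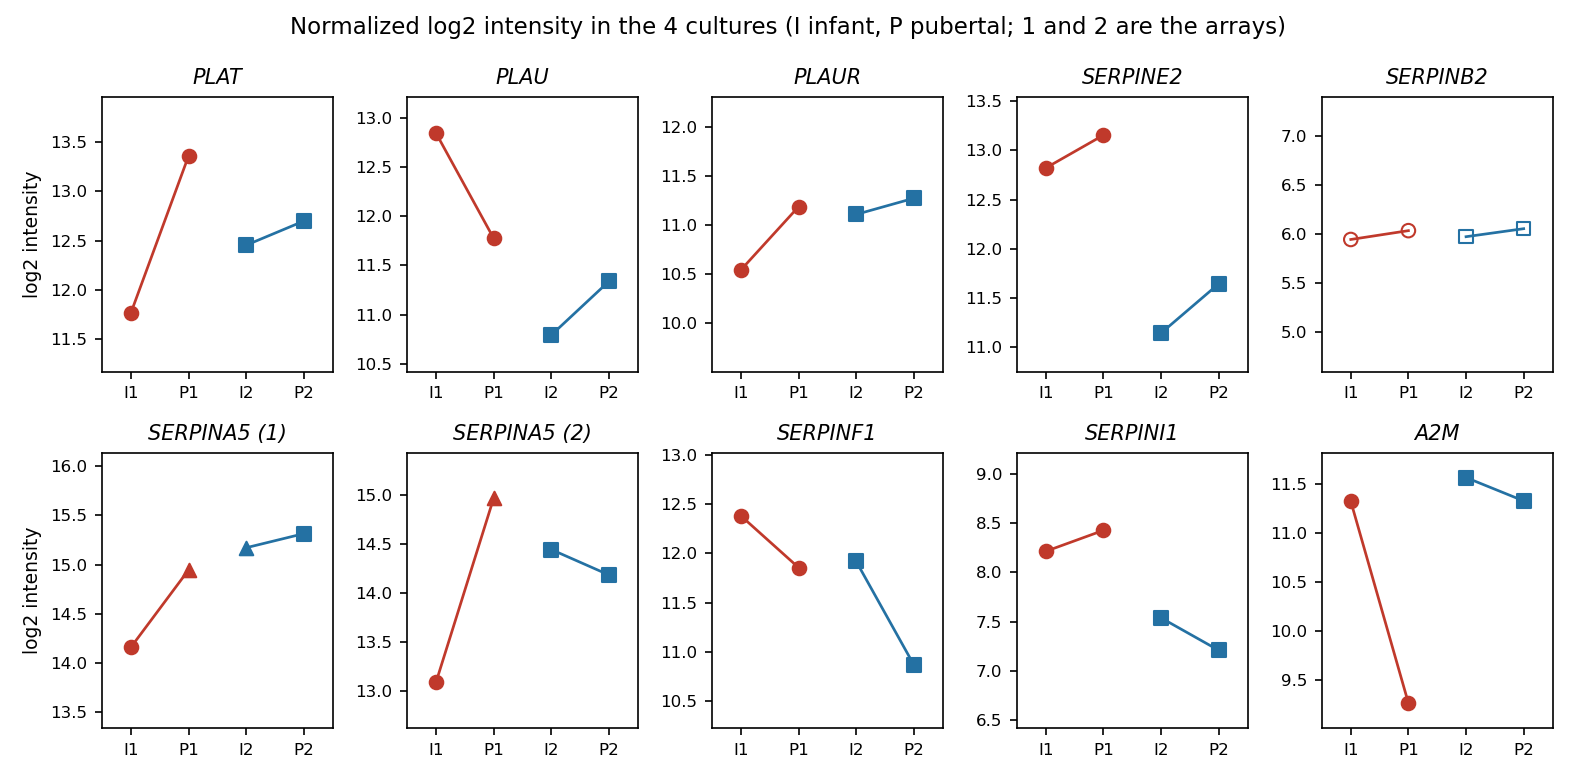
Normalized log2 intensity (y axis, the same span in every panel) of each member probe in the infant (I) and pubertal (P) culture of array 1 (red) and array 2 (blue); triangles are saturated spots, open symbols spots not well above background, and (1) and (2) the brighter and the dimmer SERPINA5 probe. SERPINF1 is lower in P than in I on both arrays, PLAU turns direction between the arrays, and the lone low value of A2M is the pubertal culture of array 1 (9.27).

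Markers of stromal and germ cells were unequal between the stages on the same arrays. Of 12 tested fibroblast and stroma markers, 10 were below 0 on both arrays and none above, both by loess and relative to the tested genes with median centring, with medians of -1.40 and -0.70 by loess (0.05 and -0.03 over all tested genes). Their summed intensity ranged from 33917 to 48240 in the pubertal and from 73728 to 84736 in the infant cultures, and OGN was the 1 marker not well above background in any culture. Germ cell markers went the other way, with 11 of 12 above 0 on both arrays by loess (9 relative to the tested genes with median centring) and summed intensities of 4023 to 4340 against 2144 to 2380, PIWIL1 being not well above background. Macrophage markers, of which 3 of 7 were above and 1 below 0 on both arrays by loess and none on either side with median centring, summed to 1361 and 1776 in pubertal and 1085 and 1266 in infant cultures.

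Sertoli cell markers summed to 183433 and 176841 in pubertal and 151434 and 127856 in infant cultures, with 9 of 19 above and 3 below 0 on both arrays by loess (8 and 2 relative to the tested genes with median centring). Summed smooth muscle markers were at 58453 and 98220 in pubertal and 35830 and 90511 in infant cultures, but by sign 4 of 8 were above and 2 below 0 on both arrays, DES at -1.07 and -1.26 and MYH11 at -1.25 and -0.63. Leydig cell markers summed to 135080 and 157332 against 132619 and 85917, although 1 of 7 was above and 2 were below 0 on both arrays by loess, with medians of -0.0028 and -0.20. The 2 below were CYP17A1 (-2.12 and -1.45) and DLK1 (-1.32 and -1.99). In the pubertal culture of array 1, the spots of 3 Sertoli cell markers, 4 Leydig cell markers (CYP11A1, HSD3B1, HSD3B2 and STAR) and 1 smooth muscle marker (TPM2) were saturated. Saturation can make those sums too low there. Endothelial markers summed to 1444 and 1337 against 1190 and 1203, with 3 of 5 above and 1 below 0 on both arrays. The part of these cells in the ratios of SERPINF1, A2M, PLAU or PLAUR was not tested.

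The tested genes with ratios nearest to those of A2M on the 2 arrays were COL3A1 (-2.15 and -0.21, at a distance of 0.10), DCN (-1.97 and -0.43, distance 0.21) and DACH1 (-2.08 and -0.46, distance 0.23). COL3A1, a collagen chain, and DCN, a matrix proteoglycan, stand in the stromal marker list. Nearest to PLAT were KALRN (1.56 and 0.23, distance 0.043), PCYT1B (1.62 and 0.20, distance 0.052) and GSTZ1 (1.65 and 0.23, distance 0.056). The distance is Euclidean over the 2 ratios, and so few points describe likeness only loosely.

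**Figure D4:**
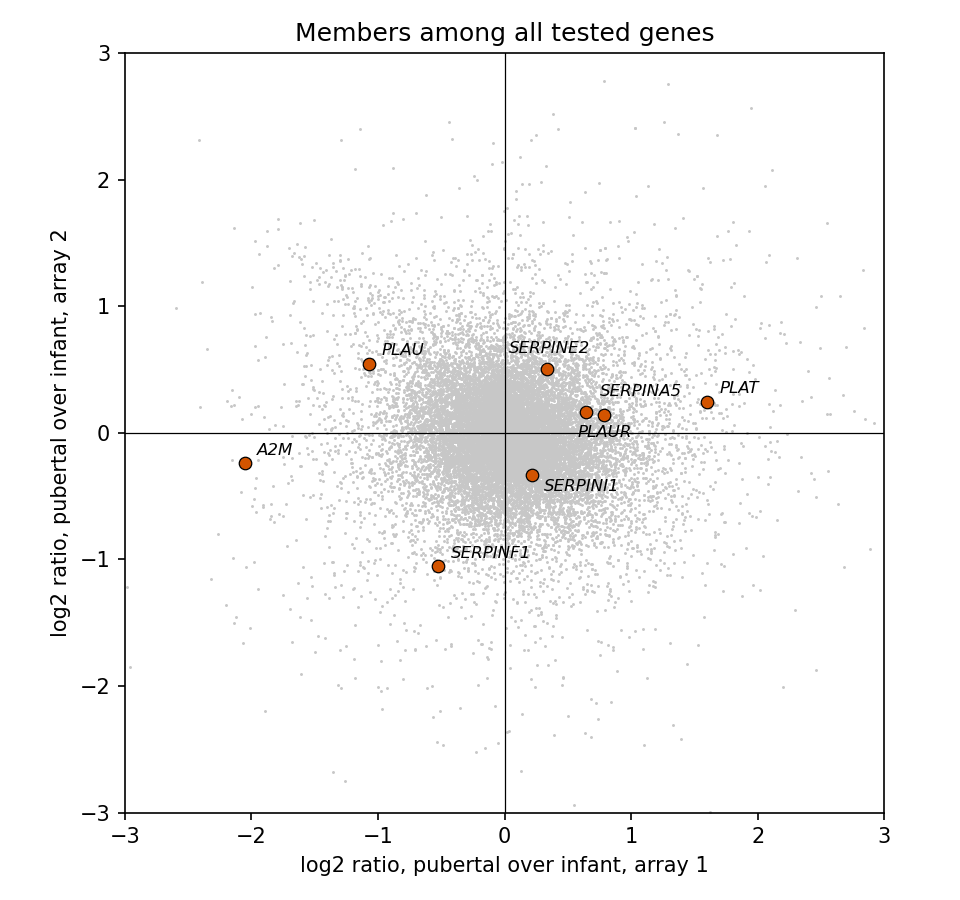
Log2 ratio of pubertal over infant RNA on array 1 (x axis) and array 2 (y axis) for the tested genes (grey points, 28 of 19611 outside the plotted range) and the 8 tested members (orange, named). PLAT and A2M lie far out along array 1 and close to 0 along array 2, and SERPINF1 is the member furthest down along array 2 (-1.05); by loess PLAT, PLAUR and SERPINA5 lie above 0 on array 2, which median centring turns.

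Other genes of plasminogen activation and coagulation were taken as a list, of which 36 of 52 could be tested. Of these 9 were above and 6 below 0 on both arrays, none was 2-fold apart on both and none passed the test, with medians of 0.06 and 0.03. TFPI2, a Kunitz inhibitor of plasmin and other proteases, was at 0.76 and 1.44 and had the smallest p of the list (unadjusted p = 0.0127, adjusted p = 0.99998 by limma). S100A10, which with annexin A2 forms a plasminogen receptor, was at 0.78 and 0.88, and its partner ANXA2, saturated in Cy5 on both arrays, at -0.59 and 0.53. A further kept ANXA2 probe, also saturated in Cy5 on both arrays, was at -0.24 and 0.10. Dim probes of S100A10 (-0.05 and -0.12) and ANXA2 (-0.14 and -0.13), well above background in the Cy5 channels alone, were not kept. LRP8, a lipoprotein receptor, was at 1.11 and 0.53. Plasminogen itself (PLG) was at -0.09 and -0.02, with means of 0.14, 0.13 and -0.01 for its other probes, the last pair not well above background. VTN, vitronectin, an adhesion protein of plasma and matrix, was at 0.74 and -0.48.

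LRP1, the receptor that clears protease complexes of serpins and of alpha-2-macroglobulin, was at -0.98 and -0.03. On array 1 it had the sign of PLAU and A2M, and on array 2 it was near 0. SERPINF2, the plasmin inhibitor alpha-2-antiplasmin, was at -0.001 and 0.11 and was not well above background in the infant culture of array 1. Neither passed limma's test (adjusted p = 0.99998 for each).

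Among the other serpins, 14 of 29 were tested, 3 above and 3 below 0 on both arrays, 1 of them at least 2-fold lower on both, with medians of -0.20 and 0.06. That gene was AGT, a serpin by fold that yields angiotensin and inhibits no protease, at -2.20 and -1.36 (adjusted p = 0.963 by limma), where the pubertal culture of array 2 was not well above background. SERPINB8 was at 1.04 and 0.39, the mean of its other probe being 0.49. SERPINH1, the collagen chaperone HSP47, was at -1.18 and -0.30. SERPINC1, SERPINF2 and SERPING1 are among the genes that stand in this list and in the one before it.

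Of the alpha-2-macroglobulin family, 3 of 5 genes were tested. CD109, a membrane-anchored relative, was at -0.46 and -0.44, below 0 on both arrays like A2M. A further CD109 probe that was kept, at 0.01 and -0.60, did not keep the sign on array 1. A2ML1 (0.51 and -0.17) and CPAMD8 (0.38 and -0.49) had opposite signs. PZP, the nearest relative of A2M, was well above background in the Cy5 channels alone and was not tested.

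Among other inhibitors of serine proteases, 19 of 31 were tested, with 4 above and 4 below 0 on both arrays and medians of 0.08 and -0.02. ITIH5, an inter-alpha-trypsin inhibitor chain, was at -0.98 and -0.99 (adjusted p = 0.984 by limma), and its 4 further probes had means from -0.85 to -0.28. A probe among them had opposite signs, at -0.57 and 0.02. That probe and the probe at -0.25 and -0.83 were not well above background in the pubertal culture of array 2. RECK, a membrane-anchored protease inhibitor, was at -1.16 and -0.34. TFPI and TFPI2 stand in this list as well as among the coagulation genes. Among secreted and membrane serine proteases, 33 of 56 were tested, with 5 above and 4 below 0 on both arrays and medians of 0.11 and -0.04. The smallest p values there belonged to FAP, a fibroblast surface protease (-1.14 and -0.28), PRSS36 (2.57 and 0.15) and PRSS23 (-0.11 and 1.65), and none passed the test. A further PRSS23 probe was at 0.21 and 0.77, with the other sign on array 1.

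The authors' deposited table lists 3 of the 10 member probes, and all 4848 of its probes have a size of at least 1 on the log2 scale in 1 or both columns. In the authors' deposited table A2M stands at -2.20 and -0.27, PLAT at 1.55 and 0.22 and PLAU at -1.13 and 0.54, in the pubertal-over-infant direction. The scanner software's own ratios for these probes were -2.18 and -0.28, 1.57 and 0.22, and -1.11 and 0.53. The columns had medians of -0.37 and 0.12, and the normalization behind the table is not given in the sources used here. Across its probes, a line of the authors' ratios on the scanner software's ratios had slopes of 1.006 on array 1 and 1.003 on array 2. The median differences were -0.016 and -0.0004, so the deposited values lay close to the scanner software's ratios.

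**Figure D5:**
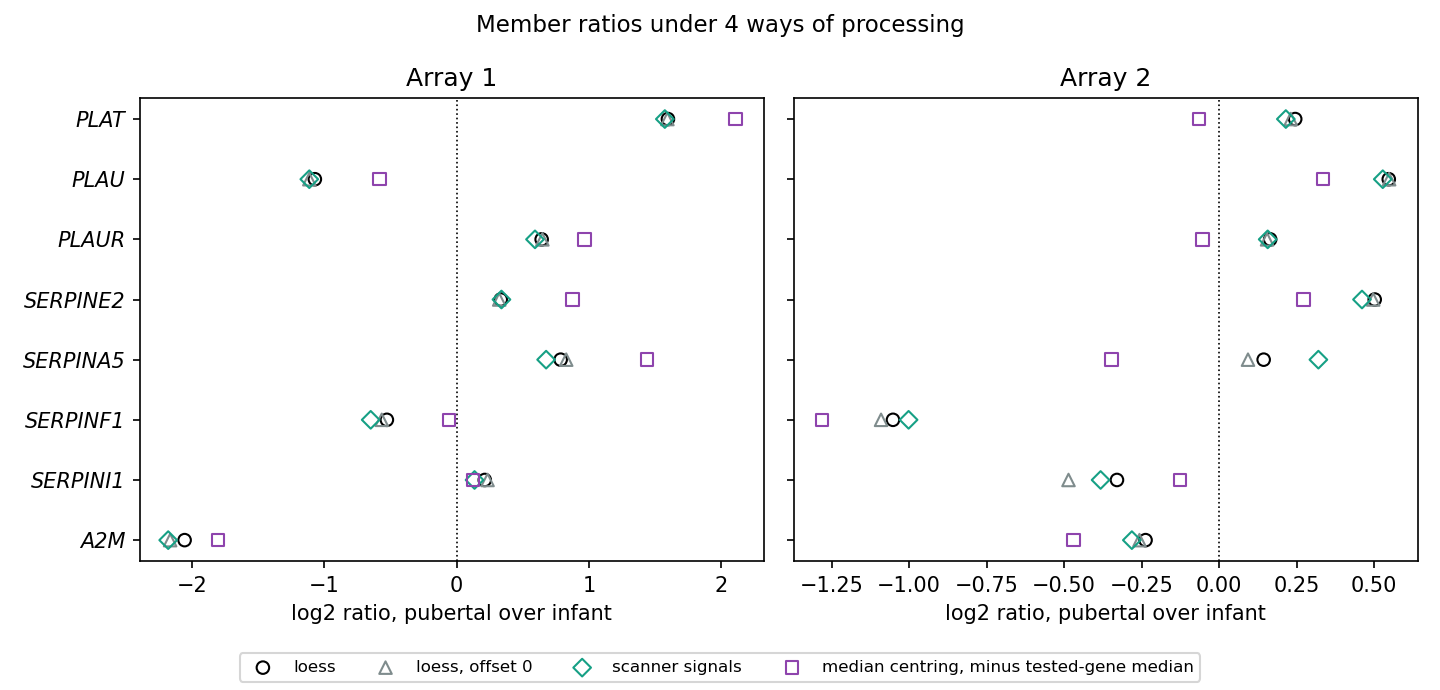
Log2 ratio of pubertal over infant RNA (x axis) of the 8 tested members (y axis) on array 1 (left) and array 2 (right) under loess with an offset of 50 (circles), loess with an offset of 0 (triangles), the scanner's signals (diamonds) and median centring less the median of the tested genes (squares). The panels have different spans; the first 3 settings share their sign for every member shown, SERPINA5 on array 2 being the most spread (0.09 to 0.32), and the squares put PLAT, PLAUR and SERPINA5 below 0 on array 2.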

How the data were processed

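The arrays (human design 014850, hg17) were read, per the submitters' processing notes, with version 9.5.1.1 of Agilent Feature Extraction. The deposited files give raw and processed spot intensities per channel, a log10 ratio of Cy5 over Cy3 and other flags per spot, per the file headers. The authors' deposited table holds log2 ratios. Mean intensities were corrected with the median local background by normexp (offset 50) and normalized by loess within arrays in limma 3.58.1 (R 4.3.3). Control spots had no weight, and outlier spots, but not saturated ones, were dropped. The offset makes ratios of dim probes smaller. Levels come from between-array A-quantile scaling. Probes well above background in both pubertal or both infant channels were kept (15232 left out), and the brightest stood for its gene. Differences were tested with lmFit and eBayes (two-sided, Benjamini-Hochberg, 0.05) with 3.82 prior degrees of freedom, and the code was tested on simulated data.

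The labels do not say that cultures came from separate animals beyond their identifiers, so p-values cannot be read as a spread between animals. limma's SE joins a gene's own gap between the array pairs with a spread pooled over all tested genes. With 3.82 prior and 1 residual degrees of freedom, the pooled part has the greater weight. It lowers the SE of genes with a wide gap, such as A2M, and raises that of SERPINE2. Of the 9 members 8 stood by symbol in the macaque RefSeq gene table. The member missing there was A2M, which the Ensembl gene names did not hold either. List genes were named where they had the 3 smallest unadjusted p of their list or were fixed partners of plasminogen or A2M. Members and lists were chosen with earlier results of these data known. The alternatives were the scanner's signals, an offset of 0, median centring, no or a strict filter, single probes, an intensity trend, outlier spots kept and each array left out. The result of 1 gene of these lists is not reported here.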

Additional observations from a re-analysis of the deposited data

How the results depend on the processing

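With the scanner's signals, an offset of 0 and median centring, the members kept the sign of their mean ratio. The exception was SERPINI1, at 0.11 with median centring. The filters, single probes and the intensity trend leave the mean ratio of a tested member as it is, so they could not turn a sign. Keeping outlier spots moved PLAT alone, to 0.917. No member passed limma's test in any of the 8 alternatives that used both arrays (adjusted p from 0.691 to 0.999995). Leaving out each array gave -0.24 and -2.05 for A2M, 0.25 and 1.60 for PLAT, 0.55 and -1.07 for PLAU, and -0.33 and 0.21 for SERPINI1. The plain median-centred ratios put 0 members above and 1 below 0 on both arrays (10.8% and 9.75% of genes). Relative to the tested-gene medians of 0.63 and -0.42, 1 member was above and 2 were below on both (15.3% and 15.3%). By loess, 5 members were above 0 and 3 below 0 on each array alone. The counts on array 2 were 4 and 4 with SERPINA5 read by its dimmer probe. All tested genes had medians of 0.05 on array 1 and -0.03 on array 2, close to 0. Over all genes, 1 passed the test with an intensity trend, 1 with median centring and 1 at an offset of 0. Genes at least 2-fold higher and lower on both arrays numbered 276 and 218 with the scanner's signals and 164 and 130 at an offset of 0, and 23 were lower with median centring. On single arrays 461 and 835 genes were at least 2-fold higher and 465 and 582 lower. The median of the plasminogen and coagulation list was 0.014, and it was 0.084 with median centring and 0.042 with the scanner's signals. Without 1 array the list medians ran from 0.026 to 0.064 for that list, -0.023 to 0.081 for other inhibitors, -0.20 to 0.06 for other serpins, -0.44 to 0.38 for the A2M family and -0.04 to 0.11 for serine proteases. No paired analysis was possible beyond the ratio itself because each array holds 1 pair and a dye or pair term leaves no residual degree of freedom. Saturation limits SERPINA5, and signal at background limits SERPINB2.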
